A study of Homo sapiens with 8 samples.

Results

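The interleukin-1 receptor genes on the long arm of chromosome 2 were followed in the EML4-ALK-positive lung adenocarcinoma cell line H3122 and in 3 sublines selected for resistance to ALK inhibitors. The cluster was picked because the RNA of IL1RL1 was higher in all 3 sublines, and the genes beside it were then taken by name and position: IL1R2, IL1R1, IL1RL2, IL1RL1, IL18R1 and IL18RAP. The changes of IL1RL1 RNA are therefore a description of the values that led to the choice. Of the 6 genes, 5 had values among the 43869 genes of the deposited data, and 3 of them were expressed, meaning that their RNA value reached log2 of 25 (4.64) in at least 1 library, as did 12701 genes in all. They were paired with 39 of the 126470 peaks of acetylated histone H3 lysine 27 (H3K27ac), a mark of active promoters and enhancers.

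The naive line was kept without inhibitor. The sublines erCriz0, erAlec0 and erLor0 were derived from it under stepwise raised doses of crizotinib, alectinib and lorlatinib. Their maintenance doses were 0.5 µM, 2 µM and 2 µM, respectively. All 4 descend from the same fusion-positive line, RNA was taken after 48 h without inhibitor, the cells for H3K27ac are labelled as kept in DMSO, and each line is represented by 1 RNA library and 1 H3K27ac library, so no value has a replicate error and no test between lines could be made. Each subline is a single derivation, and the 3 comparisons share the same naive library.

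IL-1 family receptors are membrane proteins with extracellular immunoglobulin domains and, in the signalling members, an intracellular TIR domain. A ligand-binding chain pairs with an accessory chain, the adaptor MYD88 is recruited, and the signal passes through IRAK kinases and TRAF6 to NF-kB. IL1RL1, also called ST2, binds IL-33 and occurs as a membrane receptor and as a secreted decoy made from the same gene. IL1R1 binds IL-1, IL1R2 is a decoy for IL-1, IL1RL2 is the receptor for IL-36 cytokines, and IL18R1 and IL18RAP are the 2 chains of the IL-18 receptor. IL1RAP serves as the accessory chain for IL1R1, IL1RL1 and IL1RL2.

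All 6 genes lie on the plus strand of chromosome 2 (hg38, GENCODE 44), and the peaks paired with them span 396 kb, from position 101980607 to position 102376690. IL1RL1 (ENSG00000115602.17, chr2:102311502-102352037) has a distal group of annotated starts at its 5′ end and a proximal group inside the gene, and which of them were used in these cells was not measured. The first annotated start of IL18R1 (ENSG00000115604.12, chr2:102311529-102398777) lies among the distal starts of IL1RL1, so that nearly all of IL1RL1 falls within the span of IL18R1. The other IL18R1 starts lie after the end of IL1RL1. The 2 genes share 95 exonic bases, 1.65% of the 5746 exonic bases of IL1RL1 and 2.11% of the 4500 of IL18R1. Their RNA values therefore rest almost wholly on separate sequence.

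The sequence before 4 starts is shown because these starts differed in whether a peak covered them. Sequences and starts are from RefSeq on hg38, on the plus strand, and bases that belong to an annotated exon were removed. They were searched on both strands for TGANTCA, known to bind AP-1, GATAAG, known to bind GATA factors, the TATA box as TATAAA, and the NF-kB consensus by its name, and capitals mark a match.
IL1RL1 distal start, chr2:102311313-102311501: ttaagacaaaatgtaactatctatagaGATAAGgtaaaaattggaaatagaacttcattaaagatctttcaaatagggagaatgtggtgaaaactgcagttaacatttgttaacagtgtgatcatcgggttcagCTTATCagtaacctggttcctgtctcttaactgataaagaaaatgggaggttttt
IL1RL1 proximal start, chr2:102337007-102337147: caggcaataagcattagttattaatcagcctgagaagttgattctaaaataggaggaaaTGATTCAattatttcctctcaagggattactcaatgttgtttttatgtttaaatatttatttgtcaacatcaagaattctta
IL18R1 start, chr2:102355546-102355795: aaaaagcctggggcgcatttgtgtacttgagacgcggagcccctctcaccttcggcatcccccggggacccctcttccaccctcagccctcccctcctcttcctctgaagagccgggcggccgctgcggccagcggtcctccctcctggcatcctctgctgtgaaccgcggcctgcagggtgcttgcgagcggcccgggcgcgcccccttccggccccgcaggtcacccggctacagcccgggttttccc
IL1R1 start, chr2:102142496-102142745: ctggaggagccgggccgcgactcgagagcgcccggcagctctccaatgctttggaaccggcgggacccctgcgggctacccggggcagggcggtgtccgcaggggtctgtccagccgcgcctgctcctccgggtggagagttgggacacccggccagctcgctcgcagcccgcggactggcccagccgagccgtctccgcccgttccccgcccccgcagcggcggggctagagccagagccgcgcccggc
Both IL1RL1 windows are poor in G and C, at 32.8% and 28.4%, and hold 1 and 0 CpG dinucleotides. Of 34943 windows before the starts of all genes, cut to the same bases, 4.99% and 2.41% had a GC share as low or lower. The IL18R1 window is 70.4% G and C with 21 CpG dinucleotides and the IL1R1 window 76.8% with 31, against medians of 58% and 11 over the 250 bases before all starts. The distal IL1RL1 window holds GATAAG once on each strand, and 4.45% of all windows of the same bases hold this motif. The proximal window holds TGATTCA, which reads as TGANTCA on both strands, a motif in 3.56% of such windows. The IL18R1 and IL1R1 windows hold none of the 4 motifs.

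IL1RL1 was the only member whose RNA passed a rise of 1 in every subline. Values are rlog values, a log2 scale on which the authors scaled the libraries and drew the differences of weakly read genes toward 0, and a change is the rlog of a subline minus that of naive cells. IL1RL1 stood at 4.97 in naive cells, 6.59 in erCriz0, 6.45 in erAlec0 and 7.14 in erLor0. All 3 sublines were above naive cells, erLor0 the most. The changes were 1.62, 1.48 and 2.17, which placed IL1RL1 at rank 101, 91 and 5 by change among the expressed genes. In erLor0 it exceeded erCriz0 by 0.55 and erAlec0 by 0.69, and erAlec0 differed from erCriz0 by -0.14. A rise of at least 1 was found for 2.65% (erCriz0), 2.46% (erAlec0) and 1.10% (erLor0) of expressed genes, and 20 genes rose by this much in all 3. In bulk libraries, more cells that express a gene and more RNA in each cell cannot be told apart.

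The RNA of the signalling IL-1 receptor IL1R1 (ENSG00000115594.12, chr2:102064544-102179874) was raised mainly in erCriz0. It stood at 5.94 in naive cells, 8.30 in erCriz0, 6.49 in erAlec0 and 6.76 in erLor0. The rise in erCriz0 was 2.36, rank 36 among expressed genes, and the changes in erAlec0 and erLor0 were 0.54 and 0.82, below the limit of 1. The level in erCriz0 was above that in erAlec0 and erLor0 by more than that limit, with differences of -1.82 and -1.54 for these lines minus erCriz0.

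IL18R1, the ligand-binding chain for IL-18, had the same order of lines as IL1R1. Its RNA stood at 5.35 in naive cells, 6.92 in erCriz0, 5.61 in erAlec0 and 6.02 in erLor0. This was a rise of 1.57 in erCriz0, with changes of 0.26 and 0.67 in erAlec0 and erLor0. Besides IL1RL1, whose rise led to the choice of the cluster, both other expressed members rose in erCriz0 and neither rose in erAlec0 or erLor0, where 2.65%, 2.46% and 1.10% of expressed genes rose. No expressed member fell in any subline, where a fall of at least 1 was seen for 1.65% (erCriz0), 2.07% (erAlec0) and 0.740% (erLor0) of expressed genes.

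The remaining members gave little or no RNA. The decoy receptor IL1R2 (ENSG00000115590.14, chr2:101991960-102028544) stood at 3.14 in naive cells, at 4.05, 3.36 and 3.55 in erCriz0, erAlec0 and erLor0, below the limit for expression in every library. Its changes were 0.91, 0.22 and 0.41, on a scale that shrinks the differences of such weak genes. IL1RL2 (ENSG00000115598.10, chr2:102187006-102240002) is listed at 0 in all 4 libraries. IL18RAP (chr2:102418689-102452565), the accessory chain for IL-18, has no peak within 20 kb and was not analysed here. The nearest peak of the cluster ends 41999 bp before its first annotated start.

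**Figure D1:**
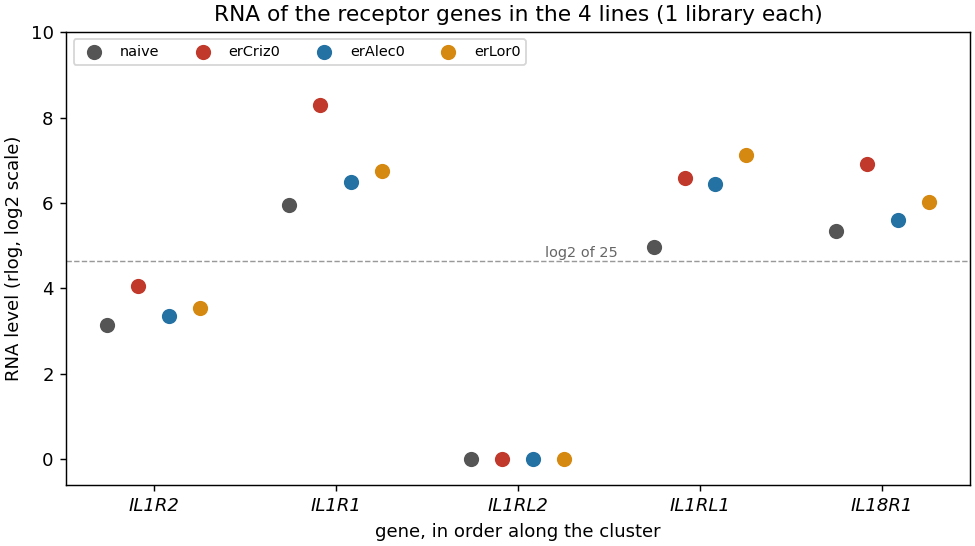
RNA level (rlog, a log2 scale) of the 5 receptor genes with values, in order along the cluster. Each point is 1 library, and the dashed line marks log2 of 25. IL1RL1 is above its naive level of 4.97 in all 3 sublines, whereas IL1R1 and IL18R1 are highest in erCriz0, at 8.30 and 6.92, and IL1RL2 is listed at 0.

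To compare levels between genes, log2 of the exonic length in kb, taken over all annotated exons of a gene together, was subtracted from each rlog. On this per-length scale IL1RL1 was the lowest of the 3 expressed members in naive cells, at 2.44 beside 3.11 for IL1R1 and 3.18 for IL18R1. In erCriz0 it was again lowest, at 4.06, with IL1R1 at 5.47 and IL18R1 at 4.75. In erLor0 it was the highest, at 4.61 beside 3.93 and 3.85, and in erAlec0 it stood at 3.93 beside 3.65 and 3.44. Without replicates it cannot be said which neighbours in these orders differ beyond their error. The orders also rest on the length used, and which transcripts of each gene were made was not measured.

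IL1RL1 was paired with only 2 peaks, against a median of 8 over expressed genes, and no peak covered any of its annotated starts. The distal starts lie 6246 to 6312 bp from the nearest peak and the proximal starts 18493 to 18633 bp. Of 12684 expressed genes with an annotated start, 91.8% had a peak over at least 1 start and 1034 had none. Among the 20 genes that rose in all 3 sublines, IL1RL1 included, 6 had none.

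The first IL1RL1 peak lies in an intron shared with IL18R1, at chr2:102317814-102318381. Its H3K27ac level was 4.11 in naive cells, 4.97 in erCriz0, 4.06 in erAlec0 and 4.42 in erLor0, so that erAlec0 was no higher than naive cells. The changes were 0.86, -0.05 and 0.31. Its central 300 bases are shown because this was the only peak inside IL1RL1, and are read from the plus strand of the hg38 genome.
Centre of the IL1RL1 intronic peak, chr2:102317948-102318247: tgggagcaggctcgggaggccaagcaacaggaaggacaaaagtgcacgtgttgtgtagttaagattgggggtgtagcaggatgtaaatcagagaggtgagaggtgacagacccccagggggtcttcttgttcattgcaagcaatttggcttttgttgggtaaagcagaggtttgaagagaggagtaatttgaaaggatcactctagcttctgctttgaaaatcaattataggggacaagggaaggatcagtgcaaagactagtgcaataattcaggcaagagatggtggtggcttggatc
This stretch is 47.0% G and C, near the median of 48.3% over the centres of 95649 peaks of at least 300 bp, and holds none of the 4 motifs.

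The second IL1RL1 peak lies after the end of the gene, at chr2:102355781-102356547, and covers the IL18R1 starts at positions 102355796, 102355929 and 102356045. It stood at 3.76 in naive cells, 5.37 in erCriz0, 3.74 in erAlec0 and 4.69 in erLor0. Its order among the sublines was that of IL18R1 RNA, with the largest change in erCriz0 (1.61), 0.92 in erLor0 and -0.03 in erAlec0. The GC-rich sequence shown for the IL18R1 start ends just before the first of these starts. The only other peak paired with IL18R1, intronic at chr2:102376425-102376690 and named after its values were seen, was weak, at 1.56, 2.90, 1.58 and 1.84, and changed by 1.34, 0.02 and 0.28.

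IL1RL1 RNA and its peaks were set side by side in each subline. In erAlec0 the RNA change was 1.48 while both paired peaks changed by less than 0.1 in size. In erCriz0 the RNA change of 1.62 stood beside peak changes of 0.86 and 1.61, and in erLor0 the RNA change of 2.17, the highest of the 3, stood beside 0.31 and 0.92. Taken over the 2 peaks, the median changes were 1.23, -0.04 and 0.62 in erCriz0, erAlec0 and erLor0. With only the peak inside the gene, the erCriz0 value fell to 0.86, below the limit of 1.

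**Figure D2:**
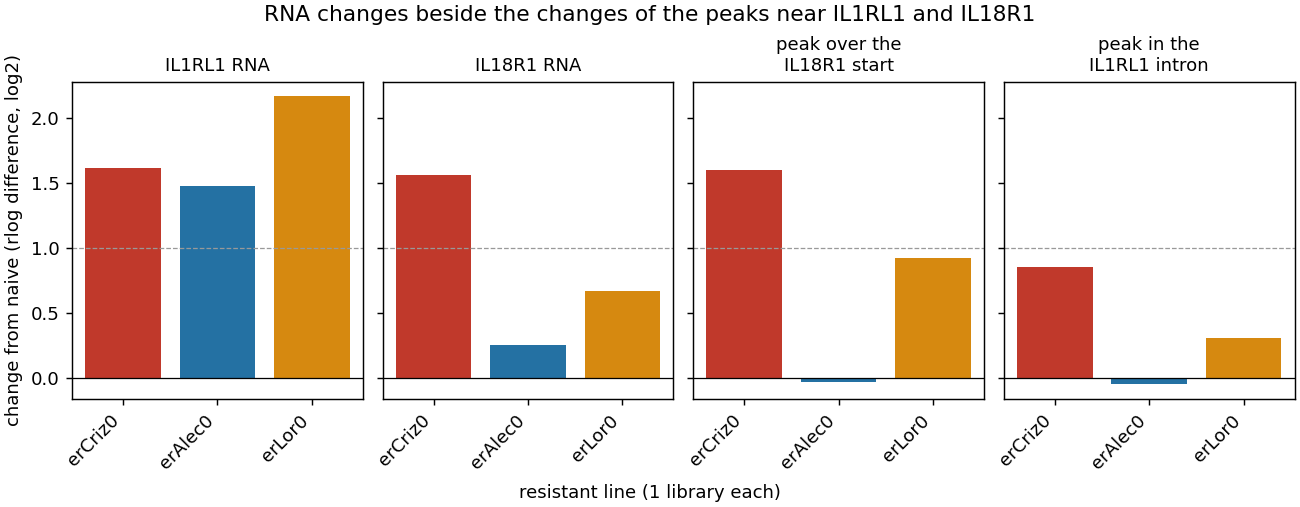
Change from naive cells (rlog difference, log2 scale) of IL1RL1 RNA, IL18R1 RNA, the peak over the IL18R1 start and the peak in the IL1RL1 intron. Each bar is 1 subline with 1 library, and the dashed line marks a change of 1. In erAlec0, IL1RL1 RNA changed by 1.48 while the start peak changed by -0.03 and the intronic peak by -0.05.

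IL1R1 had 20 paired peaks, 3 of which covered its annotated starts. The peak over the first start (chr2:102064027-102066320) was at 6.57 in naive cells, 7.32 in erCriz0, 6.60 in erAlec0 and 6.95 in erLor0. Its changes were 0.75, 0.03 and 0.39. The highest line was thus the one with the most IL1R1 RNA. The peak over the next start (chr2:102068843-102070974) stood at 5.40, 5.66, 6.93 and 6.79 in the same order, and changed by 0.26, 1.53 and 1.39, high in erAlec0 and erLor0 only. The peak over the starts at positions 102142306 and 102142746 (chr2:102142178-102142767), which contains the CpG-rich IL1R1 sequence shown, stood at 4.89, 5.58, 5.73 and 6.38, with changes of 0.69, 0.84 and 1.48. Of these 3 peaks, 2 rose in erLor0, 1 in erAlec0 and 0 in erCriz0, where 7.45%, 14.1% and 7.00% of all peaks rose. The strongest IL1R1 peak that rose in erCriz0 was intronic (chr2:102098888-102102349), at 6.93 in naive cells and 8.26 in erCriz0, a change of 1.33, with -0.57 in erAlec0 and -0.08 in erLor0. It was named after its values were seen. Over the 20 peaks the median changes were 0.07, 0.21 and 0.56.

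The 2 genes with least RNA had acetylated peaks as well. IL1RL2 had 8 peaks, none of them over a start of a member, and the strongest, intronic, stood at 8.71 in naive cells, 9.05 in erCriz0, 8.04 in erAlec0 and 8.40 in erLor0 although the RNA of the gene is listed at 0. This peak too was named after its values were seen. The median change over IL1RL2 peaks was 0.34 in erCriz0 and -0.62 and -0.37 in the other sublines, erAlec0 and erLor0, and 2 of the 8 fell in erAlec0, where 9.41% of all peaks fell. IL1R2 had 9 peaks, again none over a start of a member, of which 4 lie in the neighbouring gene LINC01127, with medians of 0.50, 0.02 and 0.06.

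Over the 39 peaks, 7 rose and 1 fell in erCriz0. In erAlec0 the counts were 2 and 2, and in erLor0 5 and 0. Of all peaks, 7.00% rose and 5.94% fell in erCriz0. The shares in erAlec0 were 14.1% and 9.41%, and those of erLor0 were 7.45% and 8.82%. No peak of the cluster rose in all 3 sublines. Only 365 of all 126470 peaks did, too few for an absence among 39 to say anything of the cluster. Without regard to size, 13 of the 39 were above naive cells and 6 below in all 3. The share of all peaks with such a common direction was not counted, and the 3 comparisons share 1 naive library. The highest value of 18 of the 39 was below log2 of 15 (3.91), the read minimum named in the study's methods. Without these weak peaks, 3 rose in erCriz0, 1 in erAlec0 and 3 in erLor0. The shares above include weak peaks, and those without them were not counted, so these 3 counts have no like background.

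The median changes of the cluster were 0.33, -0.03 and 0.28, in the order erCriz0, erAlec0, erLor0. The 425 other peaks within 5 Mb had medians of 0.30, -0.10 and 0.00, and the 167 within 2 Mb had 0.21, -0.29 and -0.11. By the same order of lines, rises numbered 66, 40 and 30 among the 425 peaks, and falls 9, 35 and 16. Among the 167 peaks, rises numbered 28, 9 and 6, and falls 9, 24 and 12. Rises in erCriz0 were thus more common around the cluster than over all peaks, and were not particular to its 39 peaks. The RNA of the 41 other expressed genes within 5 Mb had median changes of 0.12, -0.22 and 0.02. In erCriz0, 1 of these 41 genes rose, in erAlec0 1 rose and 1 fell, and in erLor0 none passed the limit.

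**Figure D3:**
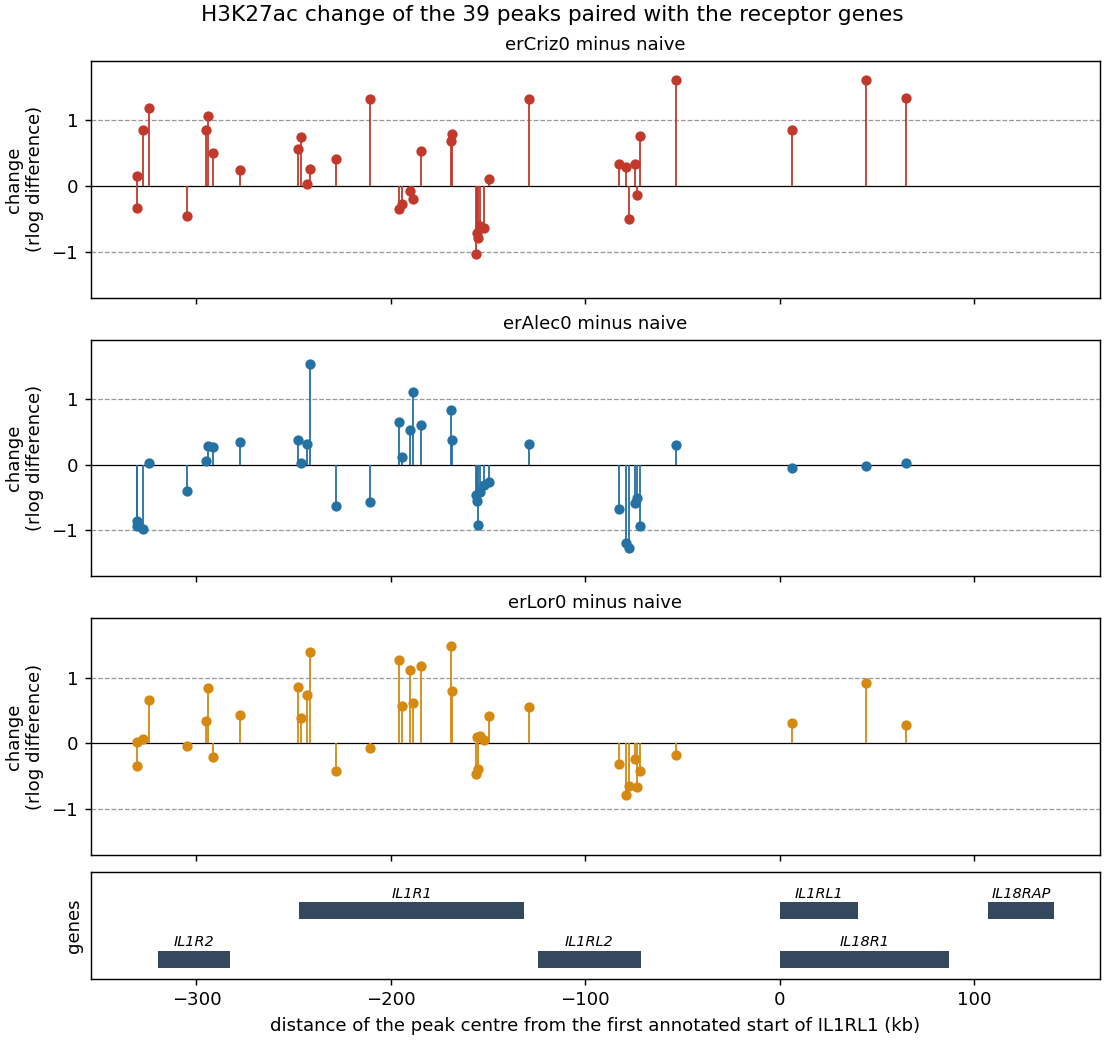
Change of H3K27ac (rlog difference from naive cells) for the 39 peaks paired with the receptor genes, 1 panel per subline, against the distance of the peak centre from the first annotated start of IL1RL1 in kb. Bars at the bottom show the 6 genes, and dashed lines mark changes of 1 and -1. Peaks to the right of 0 are high in erCriz0 and near 0 in erAlec0, and 2 IL1RL2 peaks lie below -1 in erAlec0.

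Of the genes that flank the cluster, none passed a rise of 1. MAP4K4, a kinase gene before the cluster, changed by 0.70, -0.25 and -0.13 in erCriz0, erAlec0 and erLor0. Beyond IL18RAP, the sodium-proton exchanger gene SLC9A4 is listed at 0 in every library, and SLC9A2 stood at 4.50, 3.73, 3.49 and 3.82 in naive cells, erCriz0, erAlec0 and erLor0, below the limit for expression. Its changes were -0.77, -1.01 and -0.68, past the limit of 1 in size in erAlec0. MFSD9 changed by 0.29, 0.17 and 0.06, TMEM182 by 0.02, -0.29 and -0.11, and the weakly read LINC01127 by 0.12, -0.05 and 0.17.

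Ligand and partner genes of the receptors were then examined. IL33, the ligand of IL1RL1, is listed at 0 in all 4 libraries. IL1B, IL1RN, IL36A, IL36G and SOD2 were not analysed here. Of the ligands and antagonists with values, only IL18BP, which binds IL-18, was expressed, and its changes were -0.15, -0.28 and -0.11. The accessory chain IL1RAP stood at 7.42 in naive cells, 8.16 in erCriz0, 8.45 in erAlec0 and 7.61 in erLor0. The changes of 0.74, 1.02 and 0.19 passed the limit in erAlec0 alone, by a small margin. The adaptor MYD88 changed by 0.65, 0.03 and -0.02.

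In the list of 53 IL-1 family pathway genes outside the cluster, 48 had values and 33 were expressed. In erCriz0, 2 rose and 0 fell, beside rises in 2.65% and falls in 1.65% of all expressed genes. In erAlec0, 5 rose and 1 fell, where the shares were 2.46% and 2.07%. In erLor0, 1 rose and 1 fell, where they were 1.10% and 0.740%. The median change of the 33 was 0.16, 0.20 and 0.05, beside -0.02, 0.00 and 0.00 for all expressed genes. The rises in erCriz0 were in IKBKB, a kinase that acts on the inhibitors of NF-kB (1.28), and ICAM1, an adhesion molecule (1.32). Those in erAlec0 were in IL1RAP and in 4 of the 6 expressed targets, namely the neutrophil chemokines CXCL1 (1.23), CXCL2 (1.95) and CXCL8 (2.74) and the prostaglandin synthase gene PTGS2 (2.28). CXCL8 stood at 8.48 in naive cells, 8.04 in erCriz0, 11.21 in erAlec0 and 10.03 in erLor0, so that erCriz0 was not above naive cells. In erLor0 CXCL8 alone rose, by 1.56, while CXCL2, at 0.998, was just below the limit. IRAK3, a kinase-like protein that restrains signalling from these receptors, fell by 1.74 in erAlec0 and by 1.03 in erLor0 and changed by 0.23 in erCriz0. None of the 10 NF-kB factors and inhibitors passed the limit in any subline as reported, though NFKBIZ, an inhibitor-like regulator of NF-kB, was close to it in erCriz0 at 0.97 and passed it, at 1.03, after centring on the median of expressed genes. NFKBIZ and IL18BP were named after their values were seen.

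**Figure D4:**
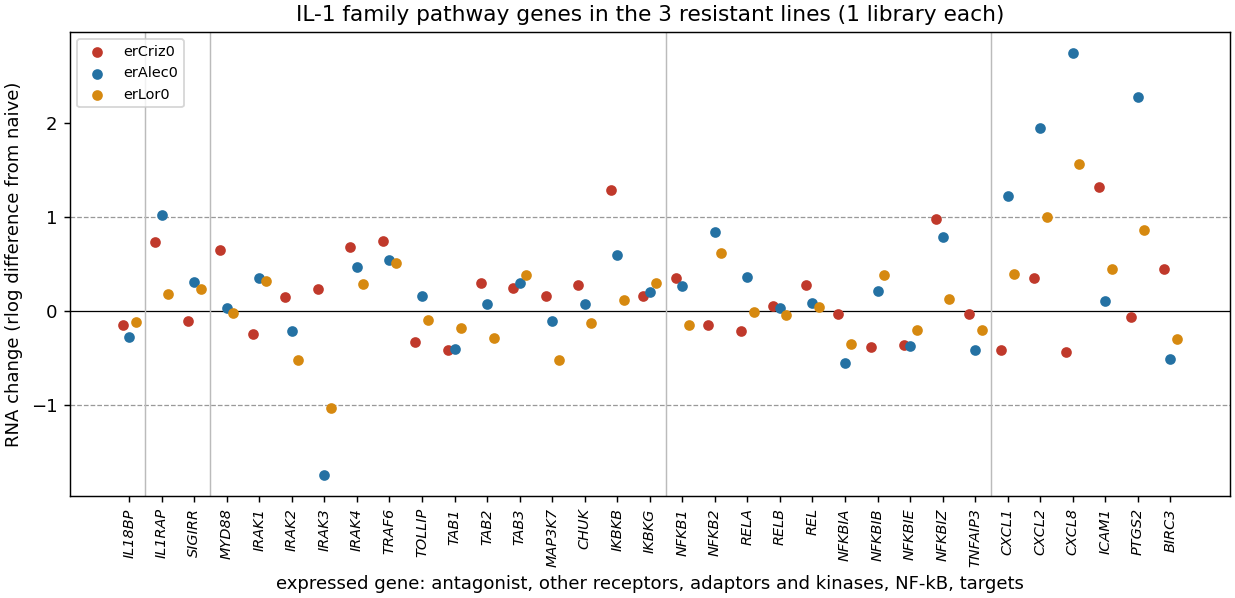
RNA change from naive cells (rlog difference) of the 33 expressed IL-1 family pathway genes, grouped by role, with 1 point per subline (1 library each) and dashed lines at 1 and -1. Most genes lie between the lines, and the values outside are chiefly targets such as CXCL8 in erAlec0 (2.74) and erLor0 (1.56), with IRAK3 below -1 in both.

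Since IL1RL1 is best known from mast cells, type 2 lymphocytes and endothelium, markers of other cell types were read beside it. All 7 epithelial markers, among them EPCAM and NKX2-1, were expressed in all 4 libraries, between 8.67 and 15.17. None of 4 leukocyte and none of the 4 mast cell markers with values was expressed, with PTPRC and TPSAB1 listed at 0, KIT at most 2.76 and CD14 at most 4.53. Of the endothelial markers, PECAM1 and VWF were near 0 in every library, and CDH5 stood at 4.10 in naive cells, 4.28 in erCriz0, 5.78 in erAlec0 and 5.64 in erLor0. CDH5 was the only expressed marker of these 3, and it reached the limit for expression in erAlec0 and erLor0 only. The sum of the 3 markers after conversion from log2 follows CDH5. This sum was 19.2, 21.3, 56.9 and 51.7 in that order, and its part in the IL1RL1 values was not tested.

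The genes whose 3 RNA changes lay nearest to those of IL1RL1, by Euclidean distance over the 3 sublines, were SCEL, PDE4B, CEMIP, RAB31 and CDH3. Their distances ran from 0.80 to 0.97. The median over 12698 expressed genes was 3.12. Most genes changed little, so this median mainly restates the rise for which IL1RL1 was chosen and is no measure of closeness. SCEL, a cornified envelope precursor of stratified epithelia, changed by 1.41, 1.58 and 1.40 in erCriz0, erAlec0 and erLor0. PDE4B, a cyclic AMP phosphodiesterase, changed by 1.31 in erCriz0 and 1.40 in erLor0, at a naive level of 4.56 near that of IL1RL1. CEMIP, which takes part in hyaluronan breakdown, changed by 1.71, 1.46 and 1.32. The GTPase gene RAB31 and the P-cadherin gene CDH3 changed by 2.09, 1.41 and 1.42 and by 1.72, 1.12 and 1.28. None of the 5 had as large a change in erLor0 as IL1RL1, at 2.17. IL1RL1 was chosen for its rise and ranked 5 by change in erLor0, so this restates the choice.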

How the data were processed

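The authors deposited 1 table of peak and gene pairs at most 20 kb apart, with log2 values that they computed with the DESeq2 rlog function over 4 libraries of each kind. RNA reads were realigned to hg38 with HISAT2 and counted with HTSeq-count. H3K27ac reads were aligned with BWA, duplicates were marked, only uniquely mapped reads of mapping quality 25 or more were kept, peaks were called with MACS2 at a q of 0.05, the peaks of 4 samples were merged, and reads were counted with featureCounts. Tool versions are not given in the sources used here, and neither is whether counting used the strand. The correlation, p-value and adjusted p-value columns that the authors deposited for each pair were not used. Every per-sample column was mapped to its line by name (unmapped columns: 0). The series lists 8 samples, of which 4 (erCriz1, erLor1, Lor 2w and the pooled input) were not analysed here.

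Identifiers were matched to GENCODE 44, where 4 of the 5 members with values have the same coordinates and the largest gap is 2 bp. Changes are plain differences, called at 1 in size. Since read totals cannot be had from rlog values, the depth of the libraries is unknown. Scripts ran in Python 3.11.15, numpy 2.4.6 and pandas 2.3.3. Members and lists were chosen with earlier results of these data known. Genes named are the members, their neighbours, listed pathway genes past the limit with IL33, IL1RAP and MYD88, and the 5 nearest patterns. Peaks named are those paired with IL1RL1 or covering the start of a member, and 3 others are marked in the text as named after their values were seen. Alternatives were centring, quantile normalization, other limits, distances and windows, and a minimum for peaks. One leukocyte marker is not reported here.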

Additional observations from a re-analysis of the deposited data

How the results depend on the processing

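With 1 library per line, no replicate could be left out. No paired analysis was possible because no group has a second sample. Of 150 alternative values for 42 results, 121 stayed on the same side of the limit, or within 1.5 times for counts, and 0 turned direction from a called value. A value that remained below 1 in size counted as staying, even where its sign changed. The IL1R2 peak median in erAlec0 went from 0.02 to -0.07 after quantile normalization. In erCriz0 the IL1R1 peak median went from 0.07 to -0.02 with only peaks that overlap the gene. The erCriz0 cluster median minus that of other peaks within 5 Mb went from 0.03 to -0.10 without weak peaks. The RNA changes of every member with RNA above 0 stayed on their side of the limit after centring on the median of expressed genes and, for the 3 expressed members, after quantile normalization. The IL1RL1 changes ran from 1.62 to 1.68 in erCriz0, 1.48 to 1.51 in erAlec0 and 2.16 to 2.19 in erLor0. The median peak change of IL1RL1 in erCriz0 was 0.86 with only peaks that overlap the gene. Centring raised the pathway rises in erCriz0 to 3, with NFKBIZ at 1.03, and those in erLor0 to 2. At a limit of 1.5-fold, 7, 8 and 4 pathway genes rose in erCriz0, erAlec0 and erLor0, and at a limit of 2 on the log2 scale 0, 2 and 0 rose and 0 fell in erAlec0 and erLor0. Cluster peaks that fell in erCriz0 numbered 0 after centring or quantile normalization, and those in erAlec0 4 after quantile normalization. At 1.5-fold, 14, 5 and 12 cluster peaks rose and 5, 9 and 3 fell, and at a limit of 2 none rose or fell in any subline (0). Without weak peaks, 3, 1 and 3 rose, with 0 falls in erCriz0 and 1 in erAlec0. Shares of all peaks and of all expressed genes under these other settings were not counted. Counts of peaks near the limit thus depend on the limit and on weak peaks, and the unknown depth limits what can be said of either.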
